A study of Solenopsis invicta with 12 samples.

Results

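SiOBP12, SiOR463 and SiOR462 are 3 chemosensory genes that the study places in the social supergene of the red imported fire ant, Solenopsis invicta. They were taken by their identifiers in the deposited gene tables (SINVm1_gene_02111, XLOC_016888 and SINVm1_gene_13698), 3 genes of 19230 in all. In antennae, SiOBP12 averaged 61.6 TPM (a length-scaled transcript level) in SB/Sb workers against 3.82 and 0.728 TPM in the SB/SB classes, SiOR463 averaged 5.89 TPM against 12.2 and 13.1 TPM, and SiOR462 was too scarce to compare.

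Odorant-binding proteins are small secreted proteins in the fluid around the dendrites of insect olfactory neurons, where they bind odorants and pheromones. Odorant receptors are membrane proteins of those neurons that form ligand-gated ion channels together with a shared co-receptor, and ants carry unusually many of them, often as tandem arrays. The supergene is a non-recombining stretch of the social chromosome with the alternative haplotypes SB and Sb. Colonies with a single queen hold SB/SB workers only, whereas colonies with several queens hold SB/SB and SB/Sb workers, and SB/Sb workers discriminate among queens by their genotype.

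RNA-Seq libraries were made from pooled antennae of workers in 3 classes, with 4 libraries (bioreplicates 2, 3, 6 and 7) in each. Class M_BB holds SB/SB workers of 4 monogyne colonies, P_BB holds SB/SB workers of 4 polygyne colonies, and P_Bb holds SB/Sb workers of the same 4 polygyne colonies. The genotype was read at Gp-9, a marker locus of the supergene, and total RNA was amplified before sequencing, so each library is a pool of nestmates of 1 colony and genotype and not 1 ant. P_Bb and P_BB libraries of the same number share the colony. By the study's methods, the M_BB colony with that number was taken from the field, and later sampled, on the same dates as the polygyne colony, but P_Bb and M_BB libraries differ in genotype, social form and colony, which cannot be told apart in that comparison. In pooled tissue, fewer cells that express a gene and less RNA per cell cannot be told apart either.

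The 12 libraries held 1662249 to 4101327 expected counts (read pairs per gene as RSEM apportions them). Markers of the antenna and of other tissues were not analysed here, because the identifiers in the tables could not be linked to gene names. Both P_Bb comparisons and the comparison by genotype use the same P_Bb libraries. The study had singled out SiOBP12 and SiOR463 from these same libraries, so the tests below are not independent evidence of a difference.

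SiOBP12, the odorant-binding protein, was far higher in the antennae of SB/Sb workers than in those of SB/SB workers, in which it ranged from 0 to 1.97 TPM in M_BB and from 0 to 10.25 TPM in P_BB. Levels are given as TPM, the transcript abundance unit of RSEM, which scales counts by gene length and by the library total. In P_Bb it was at 57.75, 104.76, 28.58 and 55.16 TPM in bioreplicates 2, 3, 6 and 7. In P_BB, the SB/SB nestmates from the same colonies, it was at 10.25, 3.82, 1.21 and 0 TPM. In M_BB it was at 0 TPM in bioreplicates 2 and 3 and at 0.94 and 1.97 TPM in bioreplicates 6 and 7. Every P_Bb library therefore lay above every SB/SB library, and the lowest P_Bb value (bioreplicate 6) stood above the highest SB/SB value (P_BB bioreplicate 2). The intervals that RSEM gives for these closest libraries, 18.3 to 38.4 TPM and 3.94 to 18.4 TPM, overlapped slightly at their ends.

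**Figure D1:**
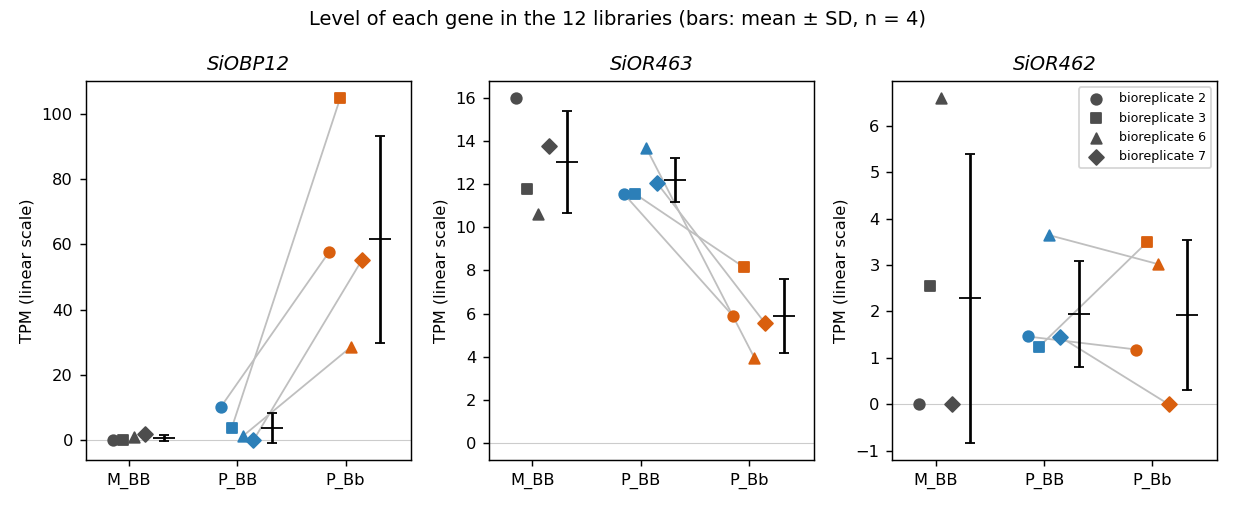
TPM (y axis, linear) of SiOBP12, SiOR463 and SiOR462 in the 12 libraries, by worker class (x axis), with a marker shape for each bioreplicate, grey lines joining P_BB and P_Bb libraries of the same colony, and black bars for mean ± SD (n = 4). The 4 P_Bb libraries lie above all others for SiOBP12 and below all others for SiOR463, and the 3 classes overlap for SiOR462.

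The class means of SiOBP12 were 61.6 ± 31.7 TPM for P_Bb, 3.82 ± 4.57 TPM for P_BB and 0.728 ± 0.939 TPM for M_BB (SD, n = 4 each). By its mean TPM the gene stood at rank 3142 of the 19230 genes in P_Bb, at rank 11764 in P_BB and at rank 14413 in M_BB. The P_Bb libraries also differed among themselves, with a highest value 3.67 times the lowest. The SB/SB libraries ranged from 0 to 10.25 TPM.

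These levels rest on few counts outside P_Bb. The P_Bb libraries held 28 to 60.11 expected counts of SiOBP12, the P_BB libraries 0 to 7 and the M_BB libraries 0 to 1. Only the 4 P_Bb libraries reached 10 counts, so the gene entered the tests through the class in which it was high. Summed over libraries and scaled to their depth, 176 counts in P_Bb stood against 11 in P_BB, a ratio of 15 with an exact 95% interval from 8.16 to 30.5. Against the 2 counts of M_BB the ratio was 83.5, with an exact 95% interval from 22.8 to 695. A library at 0 allows up to 3 counts, and all such intervals cover counting error only, since reads from amplified RNA carry no molecular identifiers and may repeat a molecule.

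The comparison by genotype set P_Bb against the averaged M_BB and P_BB levels. Because it takes in M_BB, it also holds differences of social form and colony. In it SiOBP12 rose by a log2 fold change of 5.09 (standard error, SE, 0.64), between 3.95 against P_BB and 6.22 against M_BB. The p-value adjusted by the Benjamini-Hochberg method over 10503 genes was 0.00128 in the quasi-likelihood test of edgeR. Of all tested genes 0.219% passed in that direction. It had the third highest log2 fold change and ranked at place 8 by p-value. The fitted value depends on the small constant that edgeR adds to counts near 0 and is no bound. In TPM the P_Bb libraries did not overlap the 8 SB/SB libraries (two-sided exact permutation test, p = 0.00202, the smallest that the regroupings of 4 against 8 libraries allow), which was true in that direction of 0.362% of the tested genes. The rise by genotype lost its call with limma on log2(TPM + 0.1), where the adjusted p was 0.0807.

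**Figure D2:**
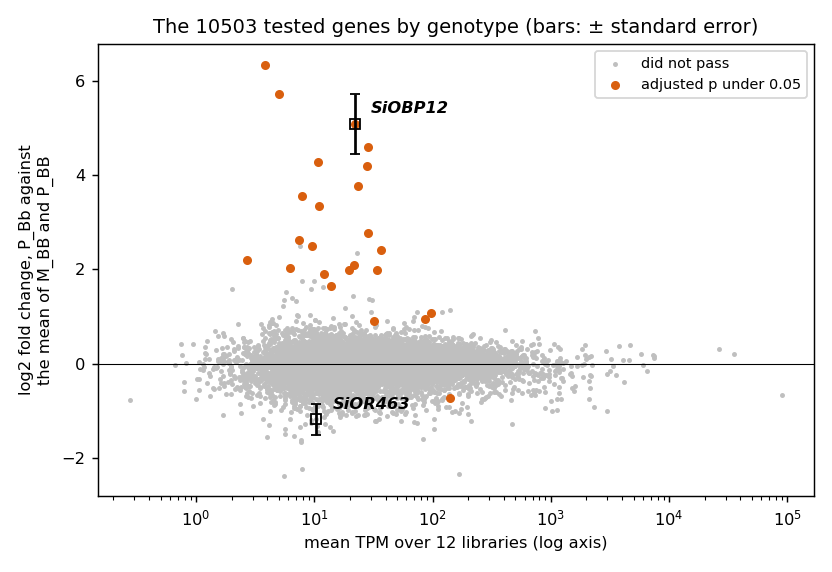
Log2 fold change of P_Bb against the averaged M_BB and P_BB levels (y axis) over mean TPM in the 12 libraries (x axis, log scale) for the 10503 tested genes, with genes at an adjusted p under 0.05 in orange and squares with standard errors for SiOBP12 (5.09) and SiOR463 (-1.18). SiOBP12 is among the 23 genes that passed with a higher level, and SiOR463 did not pass.

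Against M_BB alone SiOBP12 rose as well, with a log2 fold change of 6.22 (SE 0.93, edgeR adjusted p = 0.0102), and 0.152% of the tested genes passed in that direction. Its call was lost without M_BB replicate 6 (adjusted p = 0.0504) and with limma on log2(TPM + 0.1) (adjusted p = 0.0919). TPM ranges of P_Bb and M_BB that do not overlap, with P_Bb higher, were found in 2.2% of the tested genes.

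Against its own nestmates the difference lay at the threshold. The log2 fold change of SiOBP12 in P_Bb against P_BB was 3.95 (SE 0.73, edgeR adjusted p = 0.0503), and 0.133% of the tested genes passed with a higher level. With the replicate block, a term for the bioreplicate number (nestmates and shared dates), the adjusted p was 0.0454. Over 19 alternative fits the adjusted p ranged from 4.83e-05 to 0.674, and 7 of them passed. The TPM ranges of P_Bb and P_BB did not overlap (two-sided exact permutation test, p = 0.0286, the smallest that 70 regroupings allow), as in 0.819% of the tested genes in that direction.

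Within the colonies, SiOBP12 was higher in SB/Sb than in SB/SB nestmates in 4 of 4. The ratio of scaled counts was 5.14 in colony Rui9 (49 counts against 7, exact 95% interval 2.32 to 13.5). In colony Gui3 it was 31.4 (60 counts against 3, interval 10.3 to 157), and in colony Bang3 it was 22.9 (28 counts against 1, interval 3.78 to 936). In colony Bo5 the SB/SB pool had 0 counts against 39, with an exact 95% interval from 8.73 upward. With 3 counts set in that library the ratio was 11.3, which leaves out counting error in the 39 counts. The intervals of the 4 colonies overlapped. Flipping the sign of the TPM difference within colonies gave p = 0.125 (two-sided exact permutation test), the smallest that 16 sign patterns allow.

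**Figure D3:**
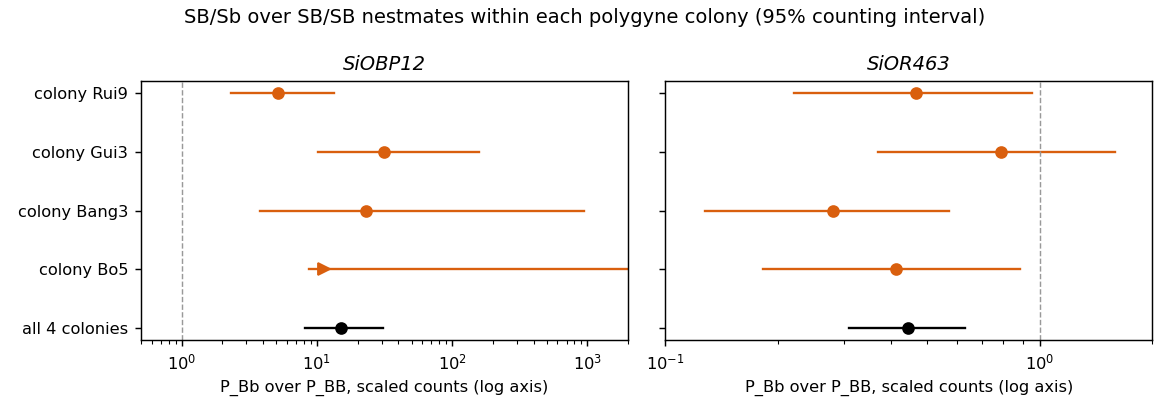
Ratio of scaled counts of P_Bb over P_BB (x axis, log scale) for SiOBP12 and SiOR463 in each polygyne colony (orange) and over all 4 (black), with exact 95% counting intervals and the dashed line at 1. The triangle in colony Bo5 is the ratio with 3 counts set in the SB/SB library (11.3). Its line starts at the lower interval limit of 8.73. The ratios over all colonies are 15 for SiOBP12 and 0.445 for SiOR463.

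Between the SB/SB classes, SiOBP12 overlapped and did not pass the test, and its fold change rested on few counts. The log2 fold change of P_BB against M_BB was 2.27 (SE 1.19, edgeR adjusted p = 0.888), at place 2 from the highest of the 10503 tested genes. SiOBP12 entered the tests through P_Bb and was scarce in both SB/SB classes, so that place carries no information. In this comparison 0% of the tested genes passed as higher in P_BB in edgeR, whereas DESeq2 called 2 and 505 genes had an unadjusted edgeR p under 0.05 in either direction. The 2 classes overlapped in TPM (difference 3.09 TPM, two-sided exact permutation test, p = 0.257). P_BB held 11 counts in all and M_BB held 2, and 7 of the 11 came from P_BB bioreplicate 2. The ratio of scaled counts was 5.58, and its exact 95% interval, 1.22 to 51.8, lay above 1 for counting error alone. Without that library the log2 fold change was 1.12.

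Dividing read pairs among the listed genes left little uncertainty in the counts of SiOBP12. RSEM's posterior standard deviation of the count, which is 0 where no read pair had to be divided among genes, was 0 in 8 libraries and at most 0.43 counts in the others. The 8 include M_BB bioreplicates 2 and 3 and P_BB bioreplicate 7, which held 0 counts. A small value reflects a confident division and does not give the number of read pairs shared. In P_Bb bioreplicates 2, 3 and 7 the standard deviation was 0.42, 0.37 and 0.43 counts. In P_BB it reached 11.3% of the count. Reads of the gene that mapped elsewhere or not at all would not show in that value, and this was not tested. The study describes a second, closely similar copy of the gene on the Sb haplotype. The level given here is that of the single identifier in the tables and does not separate the copies. In reads pooled from the P_Bb libraries, the study assigned nearly all reads at this locus to the second copy. It reports that copy as absent from the SB haplotype. The assignment was not repeated here.

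SiOR463, an odorant receptor, was lower in SB/Sb antennae than in those of either SB/SB class, with all 4 P_Bb libraries below the other 8. In P_Bb it was at 5.90, 8.16, 3.94 and 5.54 TPM in bioreplicates 2, 3, 6 and 7. In P_BB it was at 11.53, 11.55, 13.71 and 12.07 TPM. In M_BB it was at 16, 11.78, 10.63 and 13.80 TPM. The highest P_Bb library (bioreplicate 3) lay below the lowest SB/SB library (M_BB bioreplicate 6), but the RSEM intervals of these closest libraries, 4.06 to 12.3 TPM and 7.02 to 14.0 TPM, overlapped broadly.

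The class means of SiOR463 were 5.89 ± 1.74 TPM for P_Bb, 12.2 ± 1.03 TPM for P_BB and 13.1 ± 2.36 TPM for M_BB (SD, n = 4 each). By mean TPM it ranked at 10891 of 19230 genes in P_Bb, 8803 in P_BB and 8579 in M_BB. It was measured with 11 to 13.99 expected counts in each P_Bb library and 19 to 33.87 in each SB/SB library. Over all libraries the ratio of scaled counts of P_Bb to SB/SB was 0.431 (49 counts against 214, exact 95% interval 0.309 to 0.591). The ratio to P_BB was 0.445 (interval 0.310 to 0.631) and the ratio to M_BB was 0.419 (interval 0.293 to 0.591).

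In the test across all genes SiOR463 did not pass. The log2 fold change by genotype was -1.18 (SE 0.32, edgeR adjusted p = 0.612), while 0.00952% of the tested genes passed with a lower level. It had the place 29 from the lowest log2 fold change among the 10503 tested genes and place 40 by p-value. Over 20 alternative fits the adjusted p ranged from 0.144 to 1.0 and none passed, with log2 fold changes from -1.40 to -0.99. As a single value in TPM, the P_Bb libraries and the 8 others differed by -6.75 TPM (two-sided exact permutation test, p = 0.00202, the smallest that the regroupings allow, not adjusted for other genes). Of the tested genes 0.0571% had all P_Bb libraries below all SB/SB libraries.

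SiOR463 was below its nestmates' level in 4 of 4 colonies. The ratio of scaled counts was 0.467 in colony Rui9 (exact 95% interval 0.221 to 0.955), 0.281 in colony Bang3 (interval 0.128 to 0.572) and 0.414 in colony Bo5 (interval 0.182 to 0.885). In colony Gui3 the ratio was 0.786 and its interval, 0.371 to 1.59, included 1. Against P_BB over all libraries the log2 fold change was -1.09 (SE 0.36, edgeR adjusted p = 1.0), and 0% of the tested genes passed with a lower level in edgeR, whereas DESeq2 called 3 and 106 genes had an unadjusted edgeR p under 0.05 in either direction. The TPM ranges did not overlap (two-sided exact permutation test, p = 0.0286), as in 0.495% of the tested genes with P_Bb lower. Sign flips within colonies gave p = 0.125 (two-sided exact permutation test), again the smallest possible.

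Against M_BB the log2 fold change of SiOR463 was -1.27 (SE 0.36, edgeR adjusted p = 0.502), and 0% of the tested genes passed with a lower level in edgeR, whereas DESeq2 called 12 and 715 genes had an unadjusted edgeR p under 0.05 in either direction. P_Bb and M_BB ranges did not overlap in TPM, as in 0.99% of the tested genes in that direction. The SB/SB classes did not separate. P_BB against M_BB gave a log2 fold change of -0.18 (SE 0.34, edgeR adjusted p = 0.946), a TPM difference of -0.838 (two-sided exact permutation test, p = 0.571) and a ratio of scaled counts of 0.941 (exact 95% interval 0.713 to 1.24). The order of the levels was thus M_BB, P_BB, P_Bb, of which the neighbours M_BB and P_BB did not differ beyond their spread.

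Of the 3 genes, a position could be read from the deposited annotation for SiOR463 only. XLOC_016888 lies on Si_gnH scaffold 28 from 46860 to 48188 as 1 exon without a strand, and the annotation assigns no reference gene to it. The spans of 2 other gene models run across it, and neither XLOC identifier is in the gene tables. Whether these loci are counted there under SINVm1 identifiers could not be read. No exon of another model overlaps XLOC_016888, the nearest being 707 bases away. Its posterior standard deviation of the count was 0 in 10 libraries and at most 0.34 counts, so the division of read pairs among listed genes left little uncertainty. The study describes a close relative, SiOR163, beside it in a receptor cluster. Reads of a relative that was missing from the mapping reference would not show in that value, and this was not tested. The study also reports that SiOR463 is deleted from the Sb haplotype. It proposes that the lower level in SB/Sb workers may reflect gene dose, which was not tested here.

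**Figure D4:**
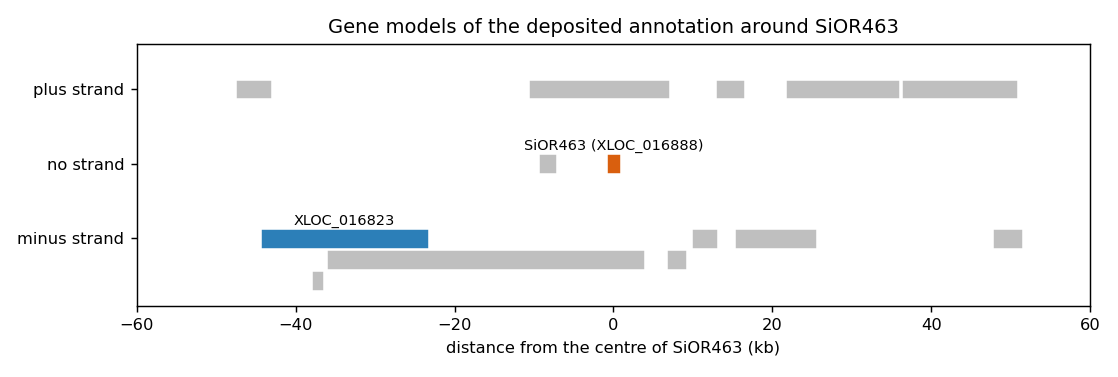
Gene models of the deposited annotation within 60 kb on either side of the centre of SiOR463 (x axis, distance in kb), drawn as full spans on the plus strand, without a strand, or on the minus strand, where overlapping spans are set lower. SiOR463 (orange) and XLOC_016823 (blue) are the 2 of the 14 models whose XLOC identifiers are in the gene tables. The XLOC identifiers of the spans in grey are not, and whether those loci are counted under SINVm1 identifiers could not be read.

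Only genes with XLOC identifiers have a position in the deposited annotation, so genes with SINVm1 identifiers could not be placed beside SiOR463. Neither of the tested XLOC genes nearest to SiOR463 on the same scaffold passed by genotype. XLOC_016823, 22.8 kb to its left, was at 8.66 ± 2.72 TPM for P_Bb, 9.40 ± 3.14 TPM for P_BB and 6.4 ± 1.61 TPM for M_BB (SD, n = 4 each). By genotype it had a log2 fold change of 0.11 (SE 0.30, edgeR adjusted p = 0.999). XLOC_016933, 234 kb to the right, ranged from 0 to 24.7 TPM in P_Bb and from 1.73 to 60.49 TPM in M_BB, with a log2 fold change of -0.44 (SE 1.0, edgeR adjusted p = 0.999). Among the 12 other tested XLOC genes on scaffold 28, 0 had all P_Bb libraries below, or all above, the SB/SB libraries. Since 0.0571% and 0.362% of all tested genes did, so few genes allow no reading of that count. The study places SiOBP12 on scaffold 42 of the same assembly. It also used that scaffold to rebuild the SB counterpart of the site that holds the second copy of SiOBP12 on the Sb haplotype. Of the XLOC genes on scaffold 42, 3 were tested, 0 passed by genotype in edgeR and 1 had an unadjusted p under 0.05. Their log2 fold changes ranged from -0.42 to -0.02 with a median of -0.20, beside -0.01 over all genes tested, and with 0.219% of all tested genes passing as higher and 0.00952% as lower a count of 0 among them carries no information. The study locates 5 other genes in the supergene among those it called different in these same libraries. Of these, 3 passed as higher and 0 as lower, with a median log2 fold change of 1.35, which describes that choice and supports nothing further.

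SiOR462, the second odorant receptor of the cluster, was at the limit of detection in all classes. In P_Bb it was at 1.18, 3.49, 3.02 and 0 TPM in bioreplicates 2, 3, 6 and 7, and in P_BB at 1.46, 1.23, 3.64 and 1.45 TPM. In M_BB it was at 0, 2.55, 6.59 and 0 TPM. The classes overlapped throughout, and M_BB held both the highest value and 2 of the 3 libraries at 0. No library except M_BB bioreplicate 6, with 7 counts, held more than 3 counts, so the gene did not reach the filter on low counts and 2 of the 3 genes were tested.

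The class means of SiOR462 were 1.92 ± 1.62 TPM for P_Bb, 1.95 ± 1.13 TPM for P_BB and 2.29 ± 3.11 TPM for M_BB (SD, n = 4 each). P_Bb and the 8 SB/SB libraries differed by -0.193 TPM (two-sided exact permutation test, p = 0.885), P_Bb and P_BB by -0.0225 TPM (p = 0.971 in the same exact test) and P_BB and M_BB by -0.34 TPM (p = 0.914 in the same exact test). The ratio of scaled counts of P_Bb to P_BB was 0.935 (6 counts against 6), and its exact 95% interval ran from 0.25 to 3.50. A change of the size seen in SiOR463 lies inside that interval, so it was not detectable at this depth. Fitted without a filter on low counts, the log2 fold change by genotype was -0.24 (SE 0.86, edgeR adjusted p = 1.0).

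The 2 receptors were also compared within each library, where the scaling of the library drops out. SiOR463 made up 77.5% ± 18.6 (SD, n = 4) of the summed TPM of both receptors in P_Bb, 86.9% ± 5.27 (SD, n = 4) in P_BB and 86.0% ± 18.2 (SD, n = 4) in M_BB. Its share ranged from 56.6% to 100% in P_Bb and from 61.7% to 100% in M_BB, so the classes overlapped. The difference between P_Bb and the 8 SB/SB libraries, -8.92 percentage points, was within the spread (two-sided exact permutation test, p = 0.356), as was that to P_BB (p = 0.429 in the same exact test). Its size rested on single libraries, at -1.96 points without P_Bb replicate 6 and -16.4 points without P_Bb replicate 7, and it was -4.57 points in expected counts. A single library fixes the share only loosely. In P_Bb bioreplicate 6, for example, SiOR463 held 78.8% of the expected counts of both, with a Wilson 95% interval from 52.4% to 92.4%.

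The names of the libraries carry the prefix LGC in 8 cases and LGC16 in 4, and the labels do not say what it marks. Among libraries with the prefix LGC, SiOBP12 was at 28.58 to 104.76 TPM in 3 P_Bb libraries, 1.21 to 10.25 TPM in 3 P_BB libraries and 0 to 0.94 TPM in 2 M_BB libraries. With the prefix LGC16, the values were 55.16 TPM in the P_Bb library, 0 TPM in the P_BB library and 0 to 1.97 TPM in 2 M_BB libraries. SiOR463 in the LGC libraries was at 3.94 to 8.16 TPM in P_Bb, 11.53 to 13.71 TPM in P_BB and 10.63 to 11.78 TPM in M_BB. In the LGC16 libraries it was at 5.54 TPM in P_Bb, 12.07 TPM in P_BB and 13.8 to 16 TPM in M_BB. For both genes the P_Bb libraries thus stood apart in the same direction within either prefix, although LGC16 holds only 1 library of P_Bb and 1 of P_BB. With the prefix as a covariate the edgeR adjusted p of SiOBP12 by genotype was 0.00264.

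The genes whose levels across the 12 libraries were most like those of SiOBP12 all shared its excess in P_Bb. Likeness was measured by Pearson's r of log2(TPM + 1) among the tested genes, and it is a description, since the 3 classes alone set much of it. SINVm1_gene_00166 (r = 0.94) was at 50.97 to 74.36 TPM in P_Bb, 3.88 to 15.5 TPM in P_BB and 1.16 to 3.57 TPM in M_BB. XLOC_044145 (r = 0.92) was at 37.71 to 105.46 TPM in P_Bb and at 7.24 to 34.94 TPM in the SB/SB classes. SINVm1_gene_09325 (r = 0.91) was at 7.24 to 17.69 TPM in P_Bb, was listed at 0 in every M_BB library and reached 0.58 TPM in P_BB. In each of the 3, as in SiOBP12, the P_Bb libraries lay above all others, as in 0.362% of all tested genes. Having been picked for likeness to SiOBP12, the 3 add no support.

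For SiOR463 the likeness was weaker, and 0 genes reached r = 0.9. XLOC_040838 (r = 0.83) was the closest, and it is also the gene that passed by genotype with a lower level (log2 fold change -0.74, SE 0.14, edgeR adjusted p = 0.0446). That call was lost with the replicate block, with no filter, with at least 10 counts in every library, with the prefix, with both limma fits and without any 1 of the 12 libraries, in each of which 0 genes passed as lower. It was at 86.29 to 110.71 TPM in P_Bb, 164.99 to 198.91 TPM in P_BB and 139.45 to 156.2 TPM in M_BB, a level far above that of SiOR463. SINVm1_gene_07743 (r = 0.81) and XLOC_031302 (r = 0.80) followed with log2 fold changes of -0.75 and -1.18, both at an edgeR adjusted p of 0.999. In XLOC_031302 the P_Bb libraries, at 44.32 to 89.3 TPM, overlapped those of M_BB, at 55.37 to 316.34 TPM. No such list was drawn for SiOR462, whose 0 to 7 counts give correlations no ground.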

How the data were processed

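Per the labels and the study's methods, the authors mapped paired reads of amplified antennal RNA with Bowtie2 onto a set of 19230 gene transcripts and quantified them with RSEM. The deposited tables hold, per gene and library, the expected count, not normalized, and the TPM that the authors' RSEM run scaled by effective length and library total, with intervals and posterior standard deviations. The deposited annotation gave positions of XLOC genes. Members and lists were chosen with earlier results of these data known. The genes named beside the members are the 3 with the highest Pearson's r for each and the nearest tested XLOC genes on the scaffold.

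Expected counts were rounded and fitted with edgeR (4.0.16, R 4.3.3), with TMM scaling, filterByExpr, the robust quasi-likelihood test and 1 model of the 3 classes over 12 libraries. EBSeq, used by the authors, was not run. Standard errors are the log2 fold change over the root of the F statistic. P-values follow Benjamini and Hochberg over 10503 genes with a threshold of 0.05. Count ratios use TMM-scaled library sizes and exact (Clopper-Pearson) 95% intervals, and permutations were enumerated in full with numpy (2.4.6). Alternatives were upper-quartile factors, DESeq2 (1.42.0), no filter, at least 10 counts in every library, limma (3.58.1) on log2(TPM + 1) and log2(TPM + 0.1), the block, the library prefix, and each library left out.

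P_BB and P_Bb libraries of the same number come from the same colony by the labels, and the study's methods tie M_BB libraries to the same number by collection and sampling date, so the numbers pair the libraries. Deviations from the class means correlated at 0.0846 to 0.65 over the 4 pairs of nestmates and at -0.362 to 0.345 over the 8 pairs with M_BB. Over the 36 pairs with different numbers they correlated at -0.535 to 0.435. That range holds all pairs with M_BB and overlaps that of the nestmates, so the pairing rests on the labels and methods. No 2 libraries of a class agreed within sampling noise (chi-square per degree of freedom at least 6.32). Within a class the pools come from separate colonies, and P-values measure the spread between such pools. P_Bb and P_BB pools share their colonies, which the main fit and the permutations over libraries do not take into account. The replicate block and the sign flips do. Depths of 1662249 to 4101327 counts leave genes of a few TPM with few counts. Other odorant receptors and odorant-binding proteins were not analysed here, since no table linked their names to the identifiers.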

Additional observations from a re-analysis of the deposited data

Results flagged for a closer look

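Among the 12 combinations of measure and class that were screened for a library far from its 3 companions, 2 stood out, both in P_BB. Chance gives about 1 in 20 for each combination if its values are normally distributed. Counts as few as those of SiOR462 are not, so that rate does not hold for them. SiOR462 in P_BB had 3.64 TPM in bioreplicate 6 and 1.23 to 1.46 TPM in the others, so that 0.905 of the class's range lay in that gap, which corresponds to 3 counts against 1 in each of the other libraries. The share of SiOR463 in the summed TPM of both receptors was 79.0% in the same library and 88.8% to 90.4% in the others, with 0.858 of the range in the gap, and it rests on the same counts of SiOR462.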

How the results depend on the processing

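SiOBP12 was higher in P_Bb than in either SB/SB class under every alternative run, and SiOR463 was lower. With limma on log2(TPM + 0.1), SiOBP12 no longer passed by genotype (log2 fold change 6.19) or against M_BB (7.18). Leaving out 1 library at a time gave 5.80 to 6.85 against M_BB and 4.66 to 5.66 by genotype. Against P_BB, SiOBP12 passed with no filter (3.97), upper-quartile factors (3.94), DESeq2 (3.98), limma on log2(TPM + 1) (4.10) and the replicate block (4.0), and leaving out a library gave 3.52 to 5.09. The block changed no other call of the members. SiOR463 in P_BB against M_BB ranged from -0.31 to 0.080 without a library, the sign turning without M_BB replicate 2. SiOR462, fitted without a filter, turned sign against M_BB with limma (0.14 with a pseudocount of 1, 0.75 with 0.1) and so did P_BB against M_BB (0.30 and 1.52). Leaving out a library moved SiOR462 from -0.39 to 0.37 (P_Bb against P_BB), -0.78 to 0.86 (P_Bb against M_BB), -0.79 to 0.91 (P_BB against M_BB) and -0.58 to 0.41 (by genotype), and its TPM difference by genotype from -0.715 to 0.448. The number of genes passing in P_Bb against P_BB, 14, became 2 with at least 10 counts in every library, 28 with DESeq2, 4 with limma on log2(TPM + 0.1), 8 with the prefix and 1 to 22 without a library. Against M_BB, 16 became 5 with at least 10 counts, 40 with DESeq2, 9 with limma on log2(TPM + 0.1) and 9 to 23 without a library. By genotype, 24 became 4, 37 and 10 in that order. P_BB against M_BB had 0 genes, 8 with DESeq2 and 0 to 1 without a library, and 505 at an unadjusted p under 0.05. At least 10 counts in every library left no value for SiOBP12 or SiOR462 by its construction, and the cause of the other shifts was not tested. Depth limits SiOR462 in every class and SiOBP12 outside P_Bb.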
